A study of Rattus norvegicus with 15 samples.

Results

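The genes described here are the matrix metalloproteinases (MMP), the ADAMTS proteases and the tissue inhibitors of metalloproteinases (TIMP) of rat bone. They were taken by symbol, as every entry of the deposited expression table named Mmp, Adamts or Timp followed by a number and at most 1 letter. This gave 43 of the 22468 genes of the table, of which 20 were MMP, 19 ADAMTS and 4 TIMP genes. After a filter on low counts 39 of them were tested, among 17657 genes in all. The 4 left out were Mmp1b, Mmp20, Mmp21 and Adamts19. The bone came from female Sprague-Dawley rats and was sequenced as 15 libraries from 5 groups of 3. Rats of the Blank group had no treatment. Model rats were ovariectomized and carry the condition osteoporosis. The SYT, YJT and YJZYT groups were also ovariectomized, and their labels name the group by these letters and give no agent, dose or time. The series title names Zhuanggu Zhitong Capsule, and no label used here says which group received it. No label names separate animals, so p-values measure the spread between these libraries.

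MMPs are zinc proteases that cut collagens, gelatin and other matrix proteins, either secreted as inactive precursors or held at the cell membrane. ADAMTS proteases, which carry thrombospondin repeats, trim procollagens and cut proteoglycans such as aggrecan and versican. TIMPs bind the active site of these enzymes and block them. In bone, collagenase and gelatinase made by osteoblast-lineage cells, cartilage cells and osteoclasts act on matrix during growth and remodelling, while neutrophils of the marrow store collagenase and gelatinase in granules.

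The MMP genes of highest and of lowest level belonged to 1 chromosomal cluster. In the deposited coordinates, whose genome build the sources used here do not state, 9 MMP genes form a cluster of 378311 bp on chromosome 8. The order was Mmp13, Mmp12, Mmp1b, Mmp3, Mmp10, Mmp8, Mmp27, Mmp20 and Mmp7. Mmp13 (chromosome 8, 5522739 to 5533018, plus strand) encodes collagenase-3, the main interstitial collagenase of rodent bone, and Mmp8 (chromosome 8, 5768811 to 5778702, plus strand) encodes the collagenase of neutrophil granules. Over the 15 libraries Mmp13 had a mean of 616 FPKM and Mmp8 a mean of 266 FPKM, ranks 1 and 2 of the 43 genes. FPKM is a level of fragments per kilobase of gene, scaled to the depth of the library. The 7 others of the cluster had means from 0.00178 FPKM (Mmp20, the enamel protease) to 0.898 FPKM (Mmp12, the macrophage elastase).

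**Figure D1:**
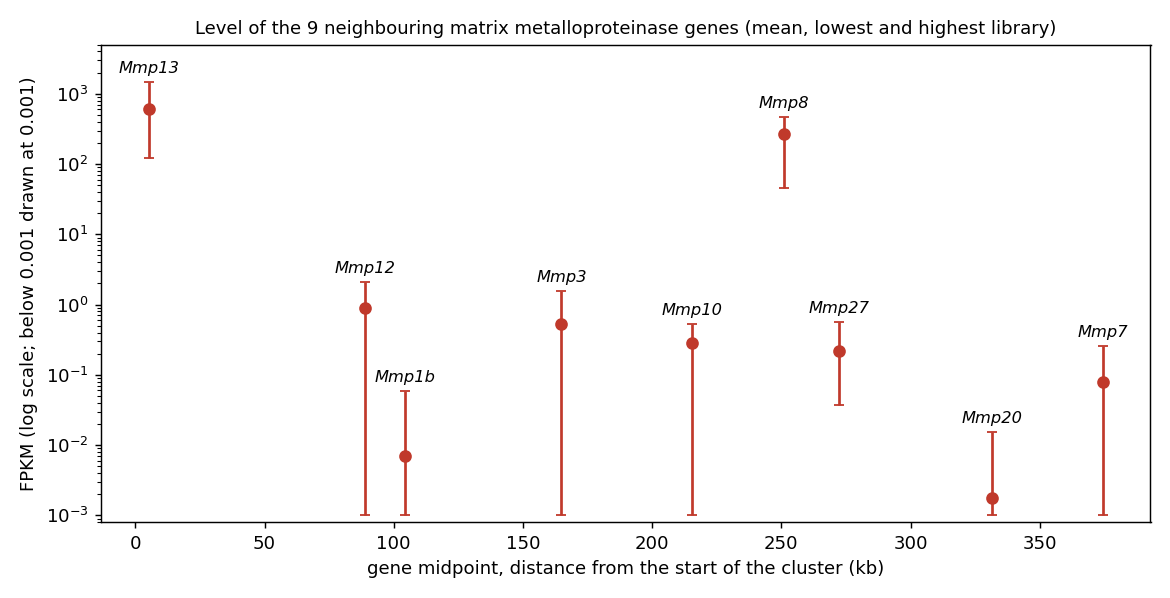
FPKM on a log axis of the 9 neighbouring MMP genes against the distance of their midpoint from the start of the cluster in kb, with points for the mean of 15 libraries and bars from the lowest to the highest library. Mmp13 and Mmp8 lie between 45.3 and 1462 FPKM, while the 7 others stay at or below 2.12 FPKM.

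The proximal promoters of this cluster are shown because 6 of its genes share letters there that were found in none of the other family genes with an entry. Sequences are RefSeq's, on the GRCr8 build, and 32 of the 43 genes had an entry. Those without one all lay outside the cluster and were not searched. They were Mmp2, Mmp9, Mmp14, Mmp16, Mmp17, Mmp19, Adamts5, Adamts8, Adamts15, Adamts16 and Adamts19. The search covered the 250 bases before each start, on both strands. It used TGANTCA, the letters bound by AP-1 (Fos and Jun dimers), which read the same on either strand, TGTGGT or ACCACA, the core of RUNX factors, and TATAAA or TTTATA. The AP-1 letters were present in 6 of the 9 cluster promoters and in 0 of the 23 others, against 6.34% of 33469 promoter windows. TATAAA or TTTATA was present in 7 of the 9 and in 4 of the 23, against 12.9% of all windows. TGTGGT or ACCACA was present in Mmp13 and Mmp1b alone of the 32, against 14.5% of all windows. In Mmp10 a TTTATA and a TATAAA further upstream overlap by 4 bases, and no other matches in the cluster overlap. The 7 windows below run 5′ to 3′ on the plus strand, with the matches in capitals.
Mmp13, chr8:12782674-12782828: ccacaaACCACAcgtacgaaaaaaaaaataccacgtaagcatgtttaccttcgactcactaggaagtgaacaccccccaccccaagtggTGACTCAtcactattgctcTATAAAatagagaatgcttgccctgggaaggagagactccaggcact
Mmp12, chr8:12866552-12866651: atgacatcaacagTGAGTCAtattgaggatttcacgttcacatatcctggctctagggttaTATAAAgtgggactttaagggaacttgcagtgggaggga
Mmp3, chr8:12925181-12925280: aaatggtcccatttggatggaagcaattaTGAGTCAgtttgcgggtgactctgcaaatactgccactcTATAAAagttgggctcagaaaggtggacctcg
Mmp10, chr8:12974607-12974706: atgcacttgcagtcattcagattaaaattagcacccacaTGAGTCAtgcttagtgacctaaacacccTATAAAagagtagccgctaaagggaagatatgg
Mmp20, chr8:13074179-13074278: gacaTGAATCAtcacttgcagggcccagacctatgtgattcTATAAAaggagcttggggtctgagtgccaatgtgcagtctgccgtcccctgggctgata
Mmp7, chr8:13132943-13133042: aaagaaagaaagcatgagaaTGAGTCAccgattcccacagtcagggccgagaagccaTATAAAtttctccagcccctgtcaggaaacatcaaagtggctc
Mmp8, chr8:13008790-13008889: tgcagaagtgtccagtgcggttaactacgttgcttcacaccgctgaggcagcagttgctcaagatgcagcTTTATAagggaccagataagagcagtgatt
The TGANTCA match began 66 bases before the start in Mmp13, 87 in Mmp12, 71 in Mmp3, 61 in Mmp10, 96 in Mmp20 and 80 in Mmp7. Mmp13 also held ACCACA 149 bases before its start. The Mmp8 window holds TTTATA 30 bases before the start, and neither of the other motifs was found in its 250 bases. Mmp13 at 616 FPKM and Mmp20 at 0.00178 FPKM, the highest and the lowest of the cluster, both held TGANTCA and TATAAA, as TGACTCA in Mmp13 and TGAATCA in Mmp20. Of these, TGACTCA is among the AP-1 letters named above and TGAATCA is not. Mmp8 at 266 FPKM held no TGANTCA.

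Column totals ran from 64472700 to 74255667 counts. Some libraries stood apart from the rest of their group. YJT replicate 3 and YJZYT replicate 3 had the lowest osteoblast, osteoclast and chondrocyte marker levels of the 15, and SYT replicate 3 had the highest osteoblast and osteoclast levels and the lowest neutrophil level. Defining osteoblast markers were above 0 in every library, with the list summing to 1128 FPKM in the lowest and 21154 FPKM in the highest. Skeletal muscle markers were above 0 in every library as well and summed to 2752 to 4161 FPKM in Blank, 171 to 518 FPKM in Model, then 372 to 2169 FPKM in SYT, 1679 to 1927 FPKM in YJT and 23.7 to 454 FPKM in YJZYT. In these bulk samples fewer cells of a type and less RNA per cell cannot be told apart.

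Among the collagenases, Mmp13 was 561, 999 and 443 FPKM in Blank, 669, 649 and 1069 in Model, 538, 620.2 and 1462 in SYT, 694, 179.6 and 120.0 in YJT and 479.7, 638 and 124 in YJZYT. The levels of SYT replicate 3 and YJT replicate 3, the highest and the lowest, differed 12.2-fold, and the groups overlapped except Model and YJZYT, whose nearest libraries lay at 649 and 638 FPKM and overlapped once counts were scaled between libraries. In no comparison did Mmp13 reach an adjusted p below 0.600. Mmp8 was 256, 159 and 183 FPKM in Blank, 371, 303 and 173 in Model, 466, 219 and 45.3 in SYT, 311, 312 and 452 in YJT and 224, 193 and 324 in YJZYT. Both extremes of Mmp8 lay within SYT, and its mean was highest in YJT, where that of Mmp13 was lowest. Mmp1b, a further collagenase gene, had at most 0.0586 FPKM and no counts in 13 libraries.

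Of the gelatinases, which degrade denatured collagen, Mmp9 (chromosome 3, 161413298 to 161421520, plus strand), known from osteoclasts and neutrophils, was 163, 288 and 222 FPKM in Blank, 349.7, 326 and 333 in Model, 203, 309 and 342 in SYT, 275, 127 and 140.1 in YJT and 437, 221 and 118 in YJZYT. The 3 Model libraries lay close together and above all 3 Blank libraries, while YJZYT spanned the range from the lowest to the highest library. Mmp2 (chromosome 19, 15542765 to 15570611, minus strand), a gelatinase of stromal and osteoblast-lineage cells, was 43.1, 85.1 and 73.5 FPKM in Blank, 53.5, 60.3 and 97.0 in Model, 31.8, 53.0 and 146 in SYT, 73.3, 47.8 and 17.5 in YJT and 64.2, 42.4 and 8.15 in YJZYT. Its libraries followed another order, with SYT replicate 3 highest and YJZYT replicate 3 lowest.

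Of the membrane-type MMPs, Mmp14 (chromosome 15, 33074441 to 33083655, plus strand), which activates the Mmp2 precursor together with Timp2, was 37.4, 78.6 and 67.9 FPKM in Blank, 65.4, 38.9 and 83.2 in Model, 25.0, 54.0 and 121 in SYT, 67.0, 30.8 and 11.5 in YJT and 57.8, 39.3 and 9.13 in YJZYT. Mmp16 was 5.61, 12.8 and 11.3 FPKM in Blank, 7.85, 9.94 and 18.3 in Model, 5.21, 5.81 and 22.0 in SYT, 8.94, 4.25 and 1.10 in YJT and 10.05, 6.37 and 1.69 in YJZYT. Both were highest in SYT replicate 3, with Mmp14 lowest in YJZYT replicate 3 and Mmp16 in YJT replicate 3. Mmp24 was 1.20 ± 0.231 FPKM (SD, n = 3) in Blank, 1.77 ± 0.195 in Model, then 1.68 ± 0.411 in SYT, 1.304 ± 0.520 in YJT and 1.17 ± 0.269 in YJZYT. Its Model libraries did not overlap those of Blank or YJZYT, and its highest and lowest libraries differed 2.48-fold. Mmp15 was 1.07 ± 0.176 FPKM (SD, n = 3) in Blank, 0.708 ± 0.340 in Model, then 0.916 ± 0.628 in SYT, 1.04 ± 0.451 in YJT and 0.325 ± 0.177 in YJZYT. Mmp17, which is anchored by a lipid, had group means from 0.186 to 0.401 FPKM.

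Of the remaining MMPs, Mmp19 had the highest level. It was 6.73 ± 0.623 FPKM (SD, n = 3) in Blank, 6.48 ± 2.02 in Model, then 6.41 ± 3.11 in SYT, 4.54 ± 1.44 in YJT and 4.34 ± 0.981 in YJZYT. Mmp23, a short MMP without the hemopexin domain, was 4.46 ± 1.55 FPKM (SD, n = 3) in Blank, 4.88 ± 2.05 in Model, then 5.91 ± 4.26 in SYT, 2.85 ± 1.80 in YJT and 3.64 ± 2.72 in YJZYT. Both had their lowest group means in YJZYT or YJT. Mmp28, or epilysin, was 1.65 ± 0.177 FPKM (SD, n = 3) in Blank, 1.41 ± 0.622 in Model, then 1.51 ± 0.392 in SYT, 1.58 ± 0.380 in YJT and 1.42 ± 0.447 in YJZYT, and its highest and lowest libraries differed only 2.16-fold. Mmp12 was 1.02 ± 0.951 FPKM (SD, n = 3) in Blank, 1.39 ± 0.612 in Model, then 1.20 ± 0.893 in SYT, 0.409 ± 0.494 in YJT and 0.471 ± 0.414 in YJZYT. It was listed at 0 in YJZYT replicate 3. The stromelysins Mmp3 and Mmp10 reached group means of 0.973 and 0.432 FPKM in SYT, where each was highest. Mmp27 ranged from 0.0368 FPKM in Blank replicate 2 to 0.574 FPKM in Model replicate 2. Mmp7, Mmp20 and Mmp21 did not exceed 0.257 FPKM in any library.

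Among the ADAMTS genes the procollagen N-proteinase Adamts2 (chromosome 10, 36098051 to 36304409, plus strand), which removes the amino propeptide of collagen, was highest by mean over the 15 libraries. It was 7.46, 14.1 and 12.6 FPKM in Blank, 10.3, 9.52 and 19.0 in Model, 5.21, 8.18 and 26.2 in SYT, 10.8, 7.51 and 2.00 in YJT and 12.0, 6.28 and 1.54 in YJZYT. The other procollagen N-proteinases were lower, Adamts14 at 2.91 ± 1.498 FPKM (SD, n = 3) in Blank, 4.02 ± 1.80 in Model, then 4.29 ± 3.49 in SYT, 1.92 ± 1.36 in YJT and 1.82 ± 1.06 in YJZYT. Adamts3 was 1.59 ± 0.479 FPKM (SD, n = 3) in Blank, 1.42 ± 1.22 in Model, then 0.949 ± 0.276 in SYT, 1.56 ± 0.554 in YJT and 1.36 ± 0.236 in YJZYT. Adamts2 and Adamts14 were highest in SYT replicate 3, Adamts3 in Model replicate 1.

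Adamts10, known from fibrillin microfibrils, was 8.03, 12.6 and 10.4 FPKM in Blank, 11.3, 13.3 and 18.9 in Model, 7.60, 9.64 and 12.7 in SYT, 11.5, 6.33 and 4.25 in YJT and 10.3, 6.85 and 4.37 in YJZYT. Adamts17 had group means from 0.813 FPKM in YJZYT to 2.08 FPKM in Model. Adamts18 ran from 0.132 FPKM in YJT replicate 3 to 8.34 FPKM in SYT replicate 3. Adamts7 and Adamts12, which cut cartilage oligomeric matrix protein, had their highest group means at 2.69 FPKM in Model and 1.89 FPKM in Blank.

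Adamts13, the protease of von Willebrand factor, had 735, 847 and 676 counts in Blank, 667, 418 and 715 in Model, 1111, 405 and 339 in SYT, 680, 613 and 584 in YJT and 473, 581 and 2 in YJZYT. YJZYT replicate 3 held 2 counts, 0.00579 FPKM, where every other library held at least 339. The cause was not tested.

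Of the proteases that cut aggrecan and versican, Adamts9 was the most abundant at 5.53 ± 0.695 FPKM (SD, n = 3) in Blank, 5.34 ± 1.34 in Model, then 4.22 ± 2.81 in SYT, 2.45 ± 1.99 in YJT and 3.54 ± 2.23 in YJZYT. Adamts1 (chromosome 11, 25342126 to 25350974, minus strand) was 6.69, 3.67 and 5.87 FPKM in Blank, 2.75, 0.915 and 3.39 in Model, 1.03, 2.29 and 2.97 in SYT, 3.78, 1.98 and 2.74 in YJT and 1.36, 1.24 and 0.577 in YJZYT. Its mean was highest in Blank and lowest in YJZYT. Adamts5, its neighbour at a gap of 60000 bp on chromosome 11, was 1.903 ± 0.360 FPKM (SD, n = 3) in Blank, 1.17 ± 0.739 in Model, then 0.998 ± 0.524 in SYT, 0.802 ± 0.226 in YJT and 0.703 ± 0.266 in YJZYT. Adamts4 had group means from 0.541 FPKM in YJZYT to 1.18 FPKM in Blank.

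Adamts8 (chromosome 8, 32018560 to 32037531, plus strand) and Adamts15 (chromosome 8, 31977001 to 32000378, minus strand) lie 18181 bp apart on opposite strands of chromosome 8, away from the MMP cluster. Adamts8 had 101, 53 and 72 counts in Blank, 4, 0 and 8 in Model, 6, 24 and 10 in SYT, 96, 11 and 41 in YJT and 0, 0 and 0 in YJZYT. It had no counts in any YJZYT library or in Model replicate 2, and every Blank library held more counts than any Model library. Adamts15 was 0.535, 0.454 and 0.537 FPKM in Blank, 0.316, 0.0455 and 0.368 in Model, 0.109, 0.283 and 0.266 in SYT, 0.609, 0.158 and 0.340 in YJT and 0.109, 0.0240 and 0.0417 in YJZYT. Both neighbours had their lowest group mean in YJZYT. Adamts16, Adamts19 and Adamts20 had group means of at most 0.123 FPKM, and Adamts6 of at most 0.767 FPKM.

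Of the inhibitors, Timp1 (chromosome X, 1364786 to 1369384, minus strand) was 41.6, 135 and 88.4 FPKM in Blank, 66.2, 115 and 121 in Model, 62.0, 66.9 and 228 in SYT, 81.4, 39.2 and 15.0 in YJT and 78.9, 51.6 and 14.6 in YJZYT. Timp2 (chromosome 10, 107338465 to 107386072, minus strand) was 72.6, 96.1 and 86.9 FPKM in Blank, 75.4, 64.6 and 89.7 in Model, 42.9, 73.0 and 132 in SYT, 80.4, 41.1 and 27.2 in YJT and 63.6, 54.4 and 18.4 in YJZYT. Both had SYT replicate 3 highest and YJZYT replicate 3 lowest. Timp3 (chromosome 7, 23544215 to 23594133, minus strand), the TIMP that binds to matrix, was 50.1, 23.2 and 49.7 FPKM in Blank, 44.3, 2.27 and 15.0 in Model, 3.98, 16.6 and 16.7 in SYT, 22.1, 8.33 and 23.4 in YJT and 11.8, 8.57 and 13.7 in YJZYT. Its group mean was highest in Blank, and Model held both a high and the lowest library, at 44.3 and 2.27 FPKM. Timp4 (chromosome 4, 147156948 to 147163467, minus strand), known mainly from heart and skeletal muscle, was 3.66, 3.16 and 4.74 FPKM in Blank, 0.753, 0.533 and 1.95 in Model, 0.952, 3.47 and 5.27 in SYT, 4.81, 1.15 and 2.61 in YJT and 0.836, 0.545 and 0.563 in YJZYT. All Blank libraries lay above all Model libraries, and all YJZYT libraries lay below all SYT and YJT libraries.

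**Figure D2:**
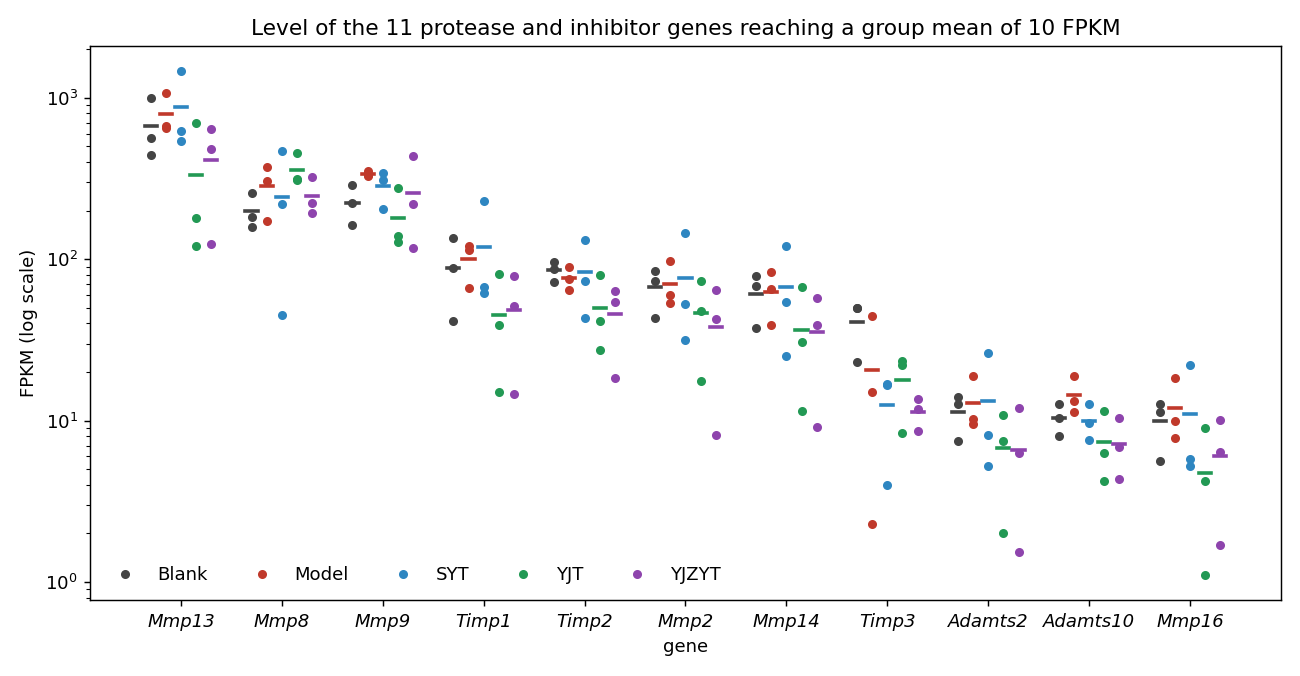
FPKM on a log axis of the 11 genes with a group mean of at least 10 FPKM, with a point for each library coloured by group and a bar for each group mean. Mmp13 spans 120.0 to 1462 FPKM, and the groups overlap in most genes.

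Over the whole family, 3 genes held most of the level. Mmp13, Mmp8 and Mmp9 together made up 65.0% to 86.9% of the summed FPKM of the 43 genes in a library. The summed MMP level divided by the summed TIMP level was 5.75 ± 1.15 (SD, n = 3) in Blank, 7.93 ± 0.255 in Model, 8.44 ± 3.02 for SYT, 8.88 ± 1.88 in YJT and 10.3 ± 2.11 in YJZYT, a description with no test. Of the 29 genes with a group mean of at least 1 FPKM, 18 had their lowest group mean in YJZYT and 8 in YJT. The highest group mean was in Blank for 13, in Model for 8, in SYT for 7, in YJT for 1 and in YJZYT for 0. The share of all genes with such an order was not counted, so these counts do not set the family apart. They include YJT replicate 3 and YJZYT replicate 3, which had the lowest osteoblast, osteoclast and chondrocyte marker levels.

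Levels within a group varied more in this family than in most genes. The within-group SD of the log2 CPM (counts scaled to library depth) had a median of 0.89 over 26 family genes with a mean of at least 1 FPKM, against 0.34 over all 13154 genes at that level. Adamts13 (1.86) and Adamts18 (1.54) varied most among them, at percentiles 99.0 and 98.2 of those genes. The value of Adamts13 includes YJZYT replicate 3, with 2 counts where every other library held at least 339.

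Differences between groups were tested with edgeR's quasi-likelihood test on the counts, adjusted over all 17657 genes, in 7 comparisons. None of the 39 genes passed an adjusted p of 0.05 in any of them or in the test of any difference among the 5 groups. Among all genes 0.0227% passed in Model against Blank, 0.0227% in the test of the 5 groups and 0% in each of the 6 other comparisons. The smallest adjusted p of a family gene was 0.102, for Adamts8 in YJZYT against YJT. DESeq2 on the same counts called 1 family gene in Model against Blank and in YJT against Model, 2 in YJZYT against SYT and 3 in YJZYT against YJT. These were Adamts8 in all 4 comparisons, Timp4 in the 2 last named and Adamts15 in YJZYT against YJT. DESeq2 called 1.67%, 0.512%, 1.51% and 2.03% of all genes in the same order. It called no family gene in SYT against Model, YJZYT against Model or YJT against SYT, where 0.125%, 0.359% and 0.0378% of all genes were called. In the test of the 5 groups it called 4 family genes, where 3.32% of all genes were called. limma on log2(FPKM + 1) called none, against 0.287% of all genes in Model against Blank, 0.624% in YJZYT against YJT, 0.724% in the test of the 5 groups and 0% in the others. At an unadjusted p of 0.05 the 5-group test held Adamts8, Timp4, Adamts1 and Adamts15, 4 of the 39 against 7.71% of all genes. The values below have an unadjusted p of at most 0.05 only, and overlap is judged on scaled counts. Where a library is left out of a comparison, the share of all genes at that p ran from 4.75% to 11.3% in Model against Blank, 2.64% to 5.78% in SYT against Model, 4.13% to 9.75% in YJT against Model and 3.65% to 10.6% in YJZYT against Model. It ran from 1.36% to 9.07% in YJT against SYT, 4.87% to 13.3% in YJZYT against SYT and 3.96% to 8.44% in YJZYT against YJT. The 4 comparisons with Model share its libraries, as do the other comparisons that name the same group.

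In ovariectomized Model bone, Adamts8, Timp4 and Adamts1 were at lower levels than in Blank, with no overlap between libraries. Adamts8 differed most (log2 fold change -4.18, SE 1.12, unadjusted p = 0.00327, adjusted p = 0.330). Timp4 differed by less (log2 fold change -1.83, SE 0.61, unadjusted p = 0.00968, adjusted p = 0.407), and Adamts1 by least of the 3 (log2 fold change -1.20, SE 0.46, unadjusted p = 0.0208, adjusted p = 0.482). Adamts16 had 56 counts over the Blank libraries and 0 in Model, at least 5.97-fold lower against a floor of 3 counts per library, with Blank replicate 2 at 0 as well. Mmp27 was higher in Model (log2 fold change 1.79, SE 0.71, unadjusted p = 0.0257, adjusted p = 0.514), although its libraries overlapped. These 5 genes are 12.8% of the 39, while 8.19% of all tested genes had such a p (3.96% higher and 4.23% lower). The count was 3 without Blank replicate 3 and 2 without Model replicate 2. Libraries did not overlap for 2 genes higher in Model (Mmp9 and Mmp24) and 5 lower, where 7.69% and 7.99% of all genes did so. All markers tested were lower in Model for megakaryocyte (7 markers, -0.84), endothelial (7 markers, -0.55), skeletal muscle (9 markers, -3.05), fat (7 markers, -1.11) and erythroid (6 markers, -0.69), each list with its median log2 fold change. For chondrocyte (10 markers, 0.47) and B cell (6 markers, 0.67) every marker was higher. Osteoblast markers were higher for 7 of 8 (median 0.31), as were osteoclast markers (median 0.27). The part of these cells in the values above was not tested.

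The family as a whole was split, with 19 of 39 genes higher and 20 lower in Model than in Blank and a median log2 fold change of -0.06, against 0.02 for all genes. Leaving out single libraries moved this median between -0.24 without Model replicate 3 and 0.07 without Blank replicate 2. It was -0.22 without Blank replicate 1, -0.13 without Model replicate 1 and 0.04 without Model replicate 2. The MMP genes were higher for 12 and lower for 5, the ADAMTS genes higher for 6 and lower for 12, and the TIMP genes higher for 1, Timp1, and lower for 3. Mmp13, Mmp8 and Mmp9 were among those higher in the point estimate, at adjusted p values of 0.980, 0.908 and 0.804.

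In SYT, Timp4 was higher than in Model (log2 fold change 1.79, SE 0.61, unadjusted p = 0.0111, adjusted p = 1), with SYT replicate 1 inside the Model range. It was the only 1 of 39 genes (2.56%) at an unadjusted p of 0.05, where 3.16% of all genes were (1.98% higher and 1.18% lower), and the count was 2 without Model replicate 1 or 3 and 0 without SYT replicate 3. Adamts8 and Mmp10 were higher in SYT with no overlap on scaled counts, as were 3.24% of all genes, and no gene was lower in that way, against 2.65%. Both overlapped in FPKM. Adamts8 was 0.0251 FPKM in SYT replicate 1 and 0.0307 in Model replicate 3. Mmp10 was 0.450 FPKM in Model replicate 1 and at most 0.435 in SYT. In SYT, every marker was lower for megakaryocyte (7 markers, -1.66) and B cell (6 markers, -0.37), each list with its median log2 fold change. Markers that were all higher were those of skeletal muscle (9 markers, 2.11) and erythroid (6 markers, 0.55). Osteoblast markers were higher for 7 of 8 (median 0.37), and osteoclast markers higher for 4 and lower for 4 (median -0.05). The part of these cells in the differences was not tested. Of the 39 genes 28 were higher and 11 lower, with a median of 0.19 against 0.02 for all genes. The split turned to 8 higher and 30 lower (median -0.31) without SYT replicate 3, and to 18 higher and 21 lower with no scaling factors, where the median of all genes moved by -0.25. On log2(FPKM + 1) 6 were higher and 23 lower. The median was 0.09 without Model replicate 2, 0.49 without Model replicate 3, 0.35 without SYT replicate 1 and 0.32 without SYT replicate 2.

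In YJT, Adamts8 was higher than in Model with no overlap (log2 fold change 3.67, SE 1.10, unadjusted p = 0.00661, adjusted p = 0.736). Timp4 was higher too (log2 fold change 1.54, SE 0.60, unadjusted p = 0.0240, adjusted p = 0.746), with overlapping libraries. Adamts16 had 32 counts over the YJT libraries and 0 in Model, at least 3.51-fold higher in the mean. YJT replicate 2 was at 0 as well, and 25 of the 32 counts lay in YJT replicate 3. These 3 genes are 7.69% of the 39, where 6.58% of all genes had such a p (4.12% higher and 2.46% lower), and the count was 1 without Model replicate 2 and 8 without YJT replicate 1. Mmp9 lay below every Model library in all YJT libraries at an unadjusted p of 0.0927. Among all genes 4.92% had no overlap in that direction, and 6.83% in the other, to which Adamts8 and Adamts20 belonged. All markers tested were lower in YJT for osteoblast (8 markers, -0.90), osteocyte (5 markers, -1.39), marrow stroma (5 markers, -0.86) and B cell (6 markers, -0.83), each list with its median log2 fold change. For skeletal muscle (9 markers, 2.37) and erythroid (6 markers, 0.97) every marker was higher. Of the 8 osteoclast markers 7 were lower, with a median of -1.20. The part of these cells in the values above was not tested.

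Of the 39 genes 12 were higher and 27 lower in YJT than in Model, with a median of -0.37 against -0.02 for all genes. The 17 MMP genes were lower for 14. The median was -0.65 without YJT replicate 1, -0.17 without YJT replicate 2, -0.15 without YJT replicate 3 and -0.19 without Model replicate 3. With no scaling factors the median of all genes moved by -0.14 and 28 genes were lower.

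In YJZYT, Adamts15 was lower than in Model (log2 fold change -1.898, SE 0.71, unadjusted p = 0.0189, adjusted p = 0.638), as were Adamts10 (log2 fold change -0.88, SE 0.38, unadjusted p = 0.0363, adjusted p = 0.651) and Adamts1 (log2 fold change -1.002, SE 0.46, unadjusted p = 0.0470, adjusted p = 0.681). Adamts8 had 12 counts over the Model libraries and 0 in YJZYT, at least 1.21-fold lower. Libraries overlapped for all 4, Adamts10 only on scaled counts. They are 10.3% of the 39, where 7.29% of all genes had such a p (4.44% higher and 2.85% lower). Adamts20, Mmp12 and Mmp24 were lower with no overlap, as were 5.57% of all genes, and none was higher in that way, against 7.35%. For Adamts20 this rests on few counts, 11 in each Model library and 10, 0 and 0 in YJZYT. The count at that p was 1 without Model replicate 3, YJZYT replicate 2 or YJZYT replicate 3, and 8 without YJZYT replicate 1. Of the 39 genes 2 were higher, 36 lower and 1, Adamts16, had no counts in either group. Among all genes 42.3% were higher. The 2 higher genes were Adamts3 and Mmp28. The median of -0.77, against -0.07 for all genes, was -0.42 without YJZYT replicate 3 and -0.48 without Model replicate 3, with 34 genes lower in each case. With no scaling factors 37 were lower. In YJZYT, every marker was lower for osteoblast (8 markers, -0.65), chondrocyte (10 markers, -0.46), macrophage (9 markers, -0.37), endothelial (7 markers, -0.43), skeletal muscle (9 markers, -0.73), tendon and fibroblast (9 markers, -1.03) and B cell (6 markers, -0.46), each list with its median log2 fold change. Markers that were all higher were those of erythroid (6 markers, 1.39). Osteoclast markers were lower for 7 of 8, with a median of -0.47. The part of these cells in the differences was not tested.

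No family gene reached an unadjusted p of 0.05 in YJT against SYT with edgeR, where 3.05% of all genes did (1.48% higher and 1.57% lower), and DESeq2 gave 2. Adamts3 and Adamts20 were higher and Mmp10 lower with no overlap, against 3.36% and 3.14% of all genes. Adamts3 overlapped in FPKM, at 1.17 in YJT replicate 2 and 1.21 in SYT replicate 2. The count was 11 without YJT replicate 1, 2 without SYT replicate 1, 2 without SYT replicate 2 and 1 without YJT replicate 2. Of the 39 genes 28 were lower in YJT and 11 higher, with a median of -0.51 that was -0.05 without SYT replicate 3, -0.83 without YJT replicate 1, -0.32 without YJT replicate 2 and -0.28 without YJT replicate 3. Mmp13 and Timp1 were among those lower, at adjusted p values of 0.931 each. All markers tested were lower in YJT for osteoblast (8 markers, -1.41), chondrocyte (10 markers, -0.42), marrow stroma (5 markers, -0.71) and B cell (6 markers, -0.43), each list with its median log2 fold change. For megakaryocyte (7 markers, 1.82) and erythroid (6 markers, 0.34) every marker was higher. Of the 8 osteoclast markers 6 were lower, with a median of -1.20. The part of these cells in the values above was not tested.

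In YJZYT against SYT, Timp4 was lower with no overlap (log2 fold change -2.38, SE 0.62, unadjusted p = 0.00206, adjusted p = 0.321). Adamts15 was lower with no overlap as well (log2 fold change -1.99, SE 0.71, unadjusted p = 0.0151, adjusted p = 0.461). Mmp15 (log2 fold change -1.57, SE 0.56, unadjusted p = 0.0156, adjusted p = 0.462) and Adamts1 (log2 fold change -1.07, SE 0.46, unadjusted p = 0.0361, adjusted p = 0.546) were lower with overlapping libraries. Adamts8 had 40 counts in SYT and 0 in YJZYT, at least 4.64-fold lower. These 5 genes are 12.8% of the 39, where 9.1% of all genes had such a p (2.89% higher and 6.21% lower). With no overlap 5 were lower, Mmp10 and Mmp24 among them, against 6.56% of all genes, and 0 higher, against 5.14%. Mmp24 overlapped in FPKM, at 1.343 in YJZYT replicate 1 and 1.335 in SYT replicate 1. The count was 9 without SYT replicate 1, 3 without SYT replicate 3, 13 without YJZYT replicate 1 and 3 without YJZYT replicate 3. Of the 39 genes 38 were lower in YJZYT, Adamts3 being the exception, with a median of -0.98 against -0.04 for all genes. It was -0.41 without SYT replicate 3, where 32 genes were lower, and -0.59 without YJZYT replicate 3. In YJZYT, every marker was lower for osteoblast (8 markers, -0.97), chondrocyte (10 markers, -1.18), endothelial (7 markers, -0.56), skeletal muscle (9 markers, -2.85) and tendon and fibroblast (9 markers, -1.41), each list with its median log2 fold change. Markers that were all higher were those of megakaryocyte (7 markers, 1.74) and erythroid (6 markers, 0.85). Osteoclast markers were lower for 6 of 8, with a median of -0.40. The part of these cells in the differences was not tested.

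YJZYT against YJT gave the largest number of such differences. Adamts15 (log2 fold change -2.65, SE 0.72, unadjusted p = 0.00291, adjusted p = 0.222) and Timp4 (log2 fold change -2.12, SE 0.61, unadjusted p = 0.00430, adjusted p = 0.271) were lower in YJZYT with no overlap. Adamts1 (log2 fold change -1.43, SE 0.46, unadjusted p = 0.00855, adjusted p = 0.370) and Mmp15 (log2 fold change -1.71, SE 0.57, unadjusted p = 0.01004, adjusted p = 0.400) were lower with no overlap as well. Adamts20 was at low levels throughout and lower in YJZYT (log2 fold change -3.92, SE 1.51, unadjusted p = 0.0223, adjusted p = 0.580). Adamts8 had 148 counts in YJT and 0 in YJZYT, at least 15.9-fold lower, and Adamts16 had 32 and 0, at least 3.22-fold lower in the mean. For Adamts16 YJT replicate 2 was at 0 as well. These 7 genes are 17.9% of the 39, where 6.39% of all genes had such a p, and all 7 were lower, where 5.19% of all genes were lower and 1.2% higher. With no overlap 6 were lower and 0 higher, against 7.59% and 3.7% of all genes. The muscle list summed to 1679 to 1927 FPKM in YJT and 23.7 to 454 FPKM in YJZYT. All markers tested were lower in YJZYT for chondrocyte (10 markers, -0.80), endothelial (7 markers, -0.37), skeletal muscle (9 markers, -2.84) and tendon and fibroblast (9 markers, -1.62), each list with its median log2 fold change. For osteoblast (8 markers, 0.27), osteoclast (8 markers, 0.35) and marrow stroma (5 markers, 0.75) every marker was higher. The part of these cells in the values above was not tested.

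Of the 39 genes 8 were higher and 31 lower in YJZYT than in YJT, with a median of -0.21 against -0.01 for all genes. Without YJT replicate 1 the split turned to 23 higher and 17 lower of 40 genes then tested (median 0.09). The median was -0.50 without YJT replicate 3, -0.62 without YJZYT replicate 1, -0.32 without YJZYT replicate 2 and -0.03 without YJZYT replicate 3. Mmp13, Mmp9, Timp1 and Mmp16 were higher in the point estimate, each at an adjusted p of 0.999.

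**Figure D3:**
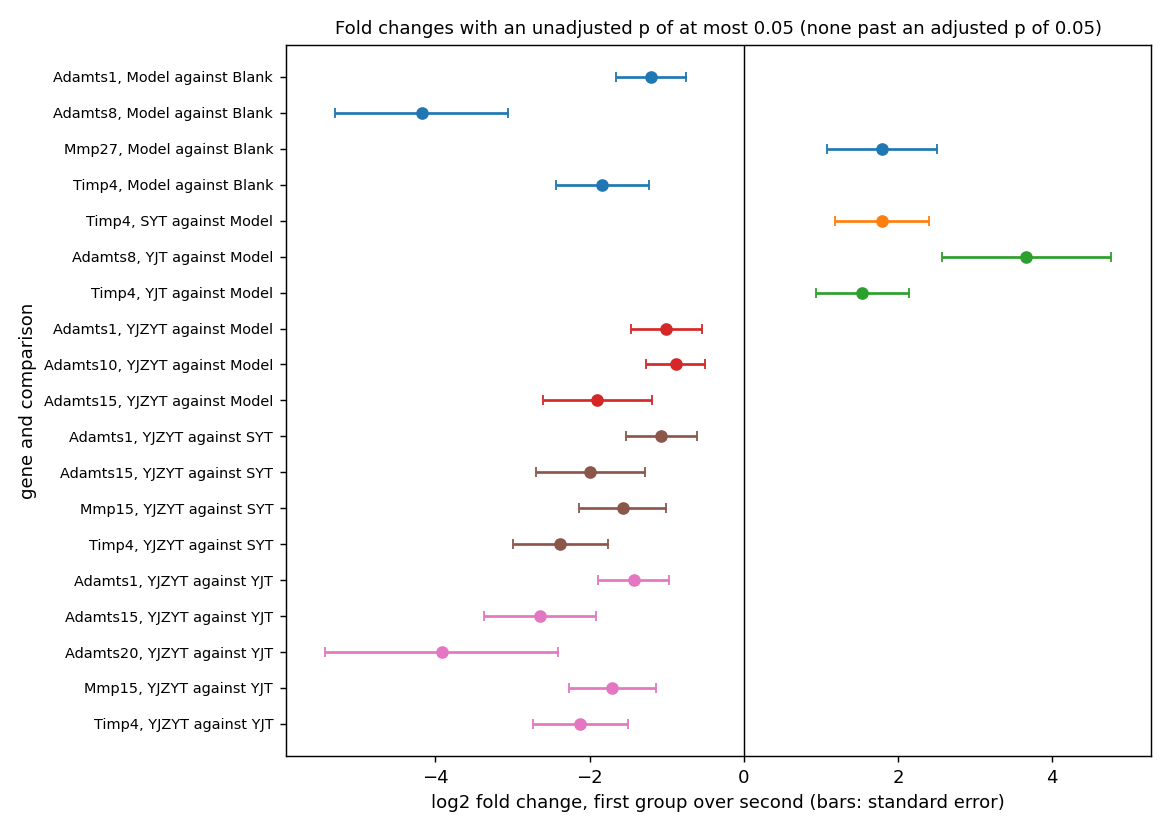
Log2 fold changes with standard errors for the 19 gene and comparison pairs with an unadjusted p of at most 0.05 and counts in both groups, from the fit of all 15 libraries. Timp4 and Adamts8 lie below 0 in Model against Blank and above 0 in YJT against Model, and all pairs with YJZYT lie below 0.

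Levels were then set against the marker lists of 15 cell types, each summarised per library as a score, the median of its markers' centred log2 CPM. Of the 390 pairs of 26 family genes and 15 scores, 183 had a Pearson correlation past an adjusted p of 0.05, 138 positive and 45 negative, and 147 by Spearman's rho, adjusted over the 390. These include 4 pairs with the muscle score, on which libraries were split into sets described further on. All use the same 15 libraries, the scores correlate with each other (osteoblast and osteoclast at r = 0.96), and p-values come from 100000 permutations. These permutations moved libraries freely across the 5 groups, so differences between groups enter the coefficients and their p-values. The osteoblast, osteoclast, chondrocyte and endothelial scores had 18 positive calls each. Of the 26 genes 13 had their highest coefficient with the osteoblast score. Mmp16 (r = 0.990, adjusted p = 0.000300, rho = 0.954, adjusted p = 0.000557), Timp1 (r = 0.976, adjusted p = 0.000300, rho = 0.943, adjusted p = 0.000557), Adamts14 (r = 0.973, adjusted p = 0.000300, rho = 0.925, adjusted p = 0.000557) and Adamts2 (r = 0.968, adjusted p = 0.000300, rho = 0.918, adjusted p = 0.000557) had the highest coefficients. The 2 libraries farthest from the median of that score were YJT replicate 3 and YJZYT replicate 3, and without them r was 0.970, 0.943, 0.936 and 0.929 in the same order. Without both libraries 75 of the 390 pairs passed, and 109 passed without SYT replicate 3 and 120 without YJZYT replicate 3.

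Among the 3 genes of highest level, Mmp13 was closest to the osteoclast score (r = 0.933, adjusted p = 0.000371, rho = 0.796, adjusted p = 0.00530, and r = 0.816 without the 2 farthest libraries). Its coefficient with the osteoblast score was 0.919, and the difference between these was not tested. Mmp9 was closest to the osteoclast score too (r = 0.873, adjusted p = 0.000371, rho = 0.800, adjusted p = 0.00576, and r = 0.786 without the 2). Mmp8 followed the neutrophil score (r = 0.931, adjusted p = 0.000459, rho = 0.843, adjusted p = 0.00370). Without SYT replicates 3 and 1, the farthest on that score, r was 0.745. Mmp8 was the only 1 of the 26 with a positive call on the neutrophil score, on which 14 others were negative, and it was negative with the osteoblast score (r = -0.700, adjusted p = 0.0200, rho = -0.779, adjusted p = 0.00677). Among the others, Adamts12 was closest to the endothelial score (r = 0.903, adjusted p = 0.000418, rho = 0.929, adjusted p = 0.000867, r = 0.848 without the farthest 2), and Timp3 to the fat score (r = 0.728, adjusted p = 0.00918, rho = 0.750, adjusted p = 0.00972, r = 0.495 without Model replicate 2 and YJT replicate 2, on which the relation rests). Adamts3 was closest to the megakaryocyte score (r = 0.642, adjusted p = 0.0233, rho = 0.846, adjusted p = 0.00252, r = 0.686 without the 2). Adamts13 and Mmp28 had no call with any score.

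**Figure D4:**
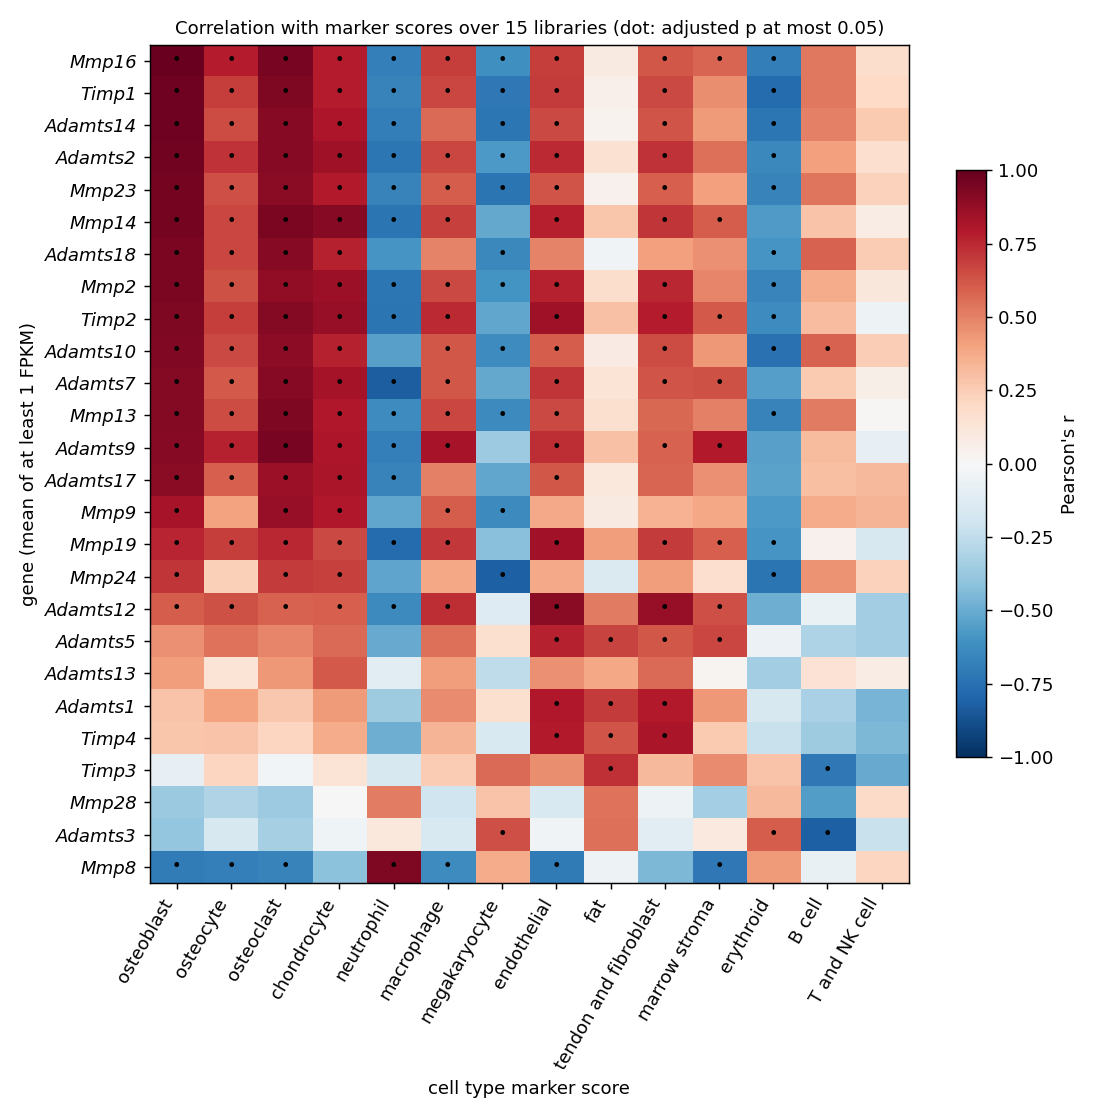
Heat map of Pearson's r over 15 libraries between 26 family genes (rows) and 14 marker scores (columns), with dots at an adjusted p of at most 0.05. Most rows are positive in the osteoblast and osteoclast columns, and Mmp8 in the bottom row has the only positive dot in the neutrophil column, at r = 0.931.

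No library had a muscle score between -0.66 and 1.25, so coefficients were taken within a higher and a lower set. These held 8 libraries between 1.25 and 2.44 and 7 between -5.59 and -0.66. The lower set was uneven, with YJZYT replicate 2 at -5.59 and the next library, Model replicate 2, at -2.42. The higher set held the Blank and YJT libraries and SYT replicates 2 and 3, and the lower set the Model and YJZYT libraries and SYT replicate 1. Timp4 ranged from 1.15 to 5.27 FPKM in the higher and 0.533 to 1.95 FPKM in the lower set, Adamts1 from 1.98 to 6.69 and 0.577 to 3.39 FPKM, Adamts15 from 0.158 to 0.609 and 0.0240 to 0.368 FPKM, and Adamts8 from 0.0383 to 0.432 and 0 to 0.0307 FPKM. The sets overlapped in the first 3 and not in Adamts8. Within the sets none of 78 relations of the 39 genes passed an adjusted p of 0.05 by Pearson's r, with 6 at an unadjusted p of 0.05 in the higher set and 1 in the lower, by two-sided exact permutation tests. By Spearman's rho 1 passed, that of Adamts5 in the higher set, where r was 0.882 (exact permutation p = 0.00392, rho = 0.976 with exact p = 0.000397). Its adjusted p was 0.206 for r and 0.0310 for rho, and r was 0.878 without Blank replicates 3 and 1, the farthest on the score. Coefficients of the lower set shifted without YJZYT replicate 2, its lowest library. For Adamts5 r there went from 0.195 to 0.895, and for Mmp27 from 0.474 to -0.674. For Timp4 r was 0.453 (exact permutation p = 0.263, rho = 0.548 with exact p = 0.171) in the higher set and 0.543 (exact permutation p = 0.212, rho = 0.679 with exact p = 0.110) in the lower, with adjusted p values of 0.790 for r and 0.600 for rho and 0.790 for r and 0.570 for rho. For Adamts1 it was 0.814 (exact permutation p = 0.0132, rho = 0.762 with exact p = 0.0368) in the higher set and 0.396 (exact permutation p = 0.392, rho = 0.714 with exact p = 0.0881) in the lower, with adjusted p values for r of 0.258 and 0.790. Without the 2 farthest libraries of each set, which in the lower are YJZYT replicate 2 and Model replicate 2, r of Adamts1 was 0.535 and 0.833. For Adamts15 it was 0.438 (exact permutation p = 0.284, rho = 0.405 with exact p = 0.327) in the higher set and 0.812 (exact permutation p = 0.00794, rho = 0.714 with exact p = 0.0881) in the lower, with adjusted p values for r of 0.790 and 0.206, and without the same libraries 0.184 and 0.780. For Adamts8 it was 0.334 (exact permutation p = 0.414, rho = 0.286 with exact p = 0.501) in the higher set and 0.497 (exact permutation p = 0.276, rho = 0.335 with exact p = 0.476) in the lower, each at an adjusted p of 0.790 for r. Adamts8 had at most 8 counts in any library of the lower set. Without the 2 farthest libraries of each set, r in the higher and lower set was -0.208 and 0.277 for Adamts8. For Timp4 it was then 0.593 and 0.349.

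**Figure D5:**
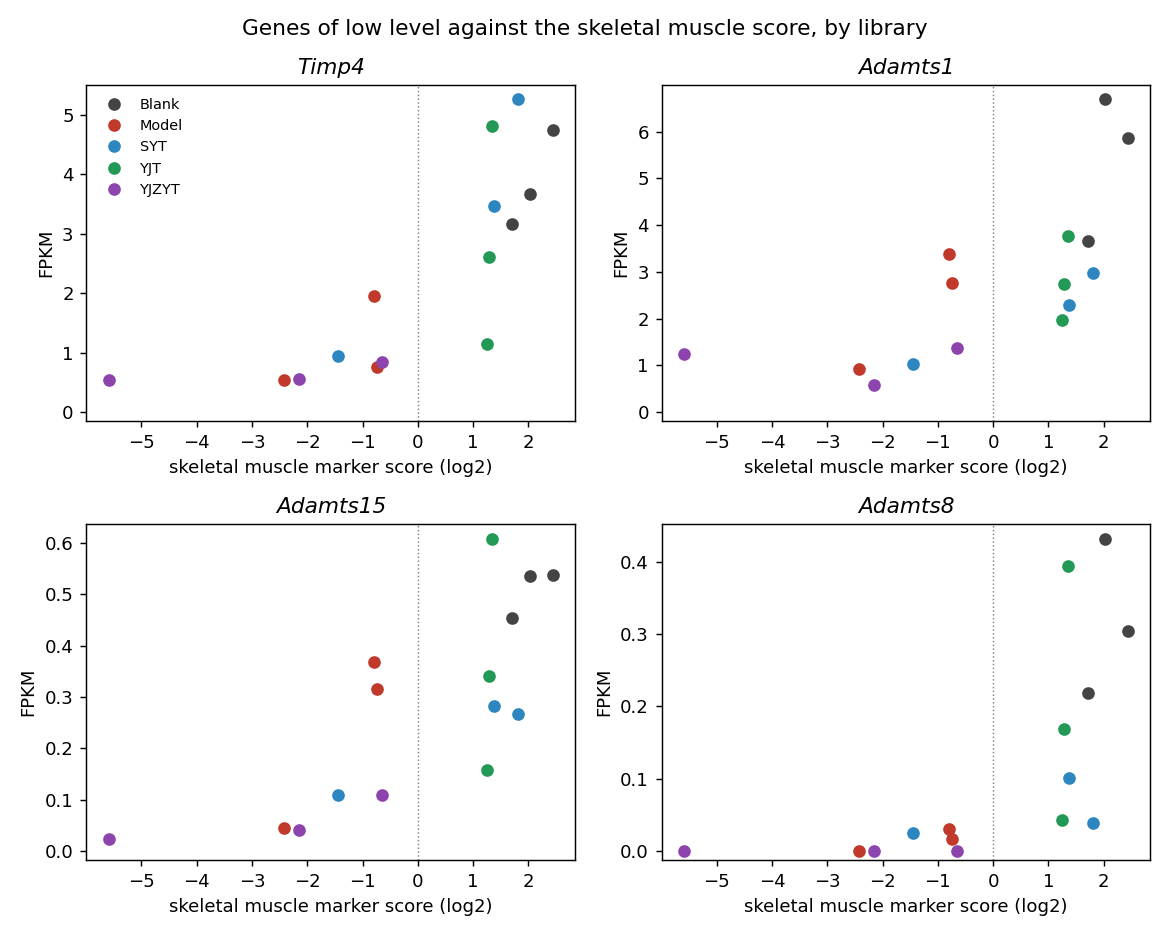
FPKM of Timp4, Adamts1, Adamts15 and Adamts8 in each library against the skeletal muscle score, coloured by group, with a dotted line at 0. Timp4 reaches at most 1.95 FPKM left of the line and lies at 1.15 FPKM or more right of it.

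Of 43 other genes of the pathway (activators, further inhibitors, related proteases and substrates) 40 were tested, and none passed an adjusted p of 0.05 in any of the 7 comparisons with edgeR, while DESeq2 called 2 in YJZYT against Model, 4 in YJZYT against SYT and 5 in YJZYT against YJT, 5%, 10% and 11.9% of those with an adjusted p. Over all genes DESeq2 called 0.359%, 1.51% and 2.03% in these comparisons. Bcan and Col3a1 were called every time, so the calls are not all separate genes. Bcan was near the floor, with a group mean of 0 FPKM for YJZYT. Its highest group mean was 0.145 ± 0.251 FPKM (SD, n = 3), for YJT. Libraries of the groups compared overlapped each time for Bcan and never for Col3a1. Of the 40 genes 33 were lower in YJZYT than in Model, 35 than in SYT and 29 than in YJT, with medians of -0.51, -0.85 and -0.51 on the log2 scale. Among all genes 42.3%, 45.6% and 49.1% were higher in the same order, with medians of -0.07, -0.04 and -0.01. In YJZYT against Model 6 were lower and 1 higher at an unadjusted p of 0.05 with edgeR, where 2.85% of all genes were lower and 4.44% higher, among them Col3a1, the fibrillar collagen III chain (log2 fold change -1.94, SE 0.48, unadjusted p = 0.00132), Vcan, the versican core protein (log2 fold change -0.92, SE 0.29, unadjusted p = 0.00763), and Tll1, a procollagen C-proteinase (log2 fold change -3.05, SE 0.98, unadjusted p = 0.00821). Plat, the tissue plasminogen activator, was lower too (log2 fold change -1.28, SE 0.49, unadjusted p = 0.0223). In YJZYT against SYT 9 of the 40 were lower, where 6.21% of all genes were, led by Col3a1 (log2 fold change -2.51, SE 0.49, unadjusted p = 0.000181), Tll1 (log2 fold change -4.11, SE 1.02, unadjusted p = 0.00139), Adam15 (log2 fold change -0.80, SE 0.21, unadjusted p = 0.00210) and Fn1, fibronectin (log2 fold change -1.34, SE 0.42, unadjusted p = 0.00771). In YJZYT against YJT 10 of the 40 were lower, where 5.19% of all genes were, led by Col3a1 (log2 fold change -2.22, SE 0.48, unadjusted p = 0.000480), Tll1 (log2 fold change -4.23, SE 1.02, unadjusted p = 0.00116), Eln, elastin (log2 fold change -2.80, SE 0.74, unadjusted p = 0.00233) and Plat (log2 fold change -1.65, SE 0.50, unadjusted p = 0.00561). Col3a1 is also among the tendon and fibroblast markers, Col1a1 among the osteoblast, Ctsk among the osteoclast, and Acan and Col2a1 among the chondrocyte markers. In Model against Blank only Papln, an ADAMTS-related matrix protein, had such a p (log2 fold change -1.24, SE 0.45, unadjusted p = 0.0173). In SYT against Model it was Ctsb, cathepsin B, higher (log2 fold change 0.52, SE 0.23, unadjusted p = 0.0373), in YJT against SYT Ctsl, cathepsin L, lower (log2 fold change -0.98, SE 0.45, unadjusted p = 0.0474), and in YJT against Model none. In the first 3 of these 4 comparisons, in that order, 4.23% of all genes were lower, 1.98% higher and 1.57% lower at that p.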

How the data were processed

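Polyadenylated RNA of bone was sequenced as paired ends with unique molecular identifiers, per the labels' protocols. Tools listed without their roles in the submitters' processing notes are HISAT2 2.0.4 and StringTie 1.3.4d, with cutadapt 1.9 and UMI-tools, and also edgeR and DESeq2. The sources used here give no genome build, counting step or strand setting, so overlapping genes or near copies may share reads. Whole-number counts and FPKM made by the authors stand side by side in the table, per the file headers, and were used as deposited.

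Counts were fitted in R 4.3.3 with edgeR 4.0.16 (filterByExpr, TMM factors, robust quasi-likelihood, 1 mean per group over 15 libraries, 10 residual degrees of freedom), two-sided with Benjamini-Hochberg adjustment over 17657 genes and a threshold of 0.05. The biological coefficient of variation was 42.7%. Scores used log2 CPM with a prior count of 2. DESeq2 1.42.0, limma 3.58.1 on log2(FPKM + 1) or log2(FPKM + 0.1), other scalings, filters and left-out libraries were alternatives. The scripts were tested on simulated data. Floors of 3 counts cover counting error only.

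Named are all genes with a group mean of at least 1 FPKM or an unadjusted p of at most 0.05, with values of every library from 10 FPKM and fold changes for the latter. Regulators are named up to 4 per comparison by p. Adamts13 counts, the promoter windows and the within-set muscle correlations were chosen after values were seen. The family genes and all lists were chosen with earlier results of these data known.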

Additional observations from a re-analysis of the deposited data

How the results depend on the processing

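Counts of family genes past an adjusted p of 0.05 were 0 under every alternative run except DESeq2, which called 1 in Model against Blank, 1 in YJT against Model, 2 in YJZYT against SYT, 3 in YJZYT against YJT and 4 in the test of the 5 groups (Adamts1, Adamts8, Timp4 and Adamts15), against 1.67%, 0.512%, 1.51%, 2.03% and 3.32% of all genes, and 11 of the regulators summed over the 7 comparisons, in each of which it called 0.0378% to 2.03% of all genes, and except leaving out Model replicate 2, which gave 1 (Adamts8, YJZYT against YJT). The cause was not tested. The 11 regulator calls are not 11 separate genes, as Bcan, Col3a1 and Tll1 were called in more than 1 comparison. Leaving out a single library of the comparison gave 0 to 0 family genes in each. Of the fold changes named, 338 kept direction and side of the threshold and 7 passed it, all 7 with DESeq2, counted over alternatives that leave out no library from outside the comparison. The passing of Adamts8 without Model replicate 2 (adjusted p = 0.0390) is therefore not among them. With DESeq2 the adjusted p of Adamts8 in YJZYT against YJT was 4.31e-05, within a range of 4.31e-05 to 0.449 over its alternatives. The correlation count of 183 was 75 without both YJT replicate 3 and YJZYT replicate 3, and ran from 109 to 197 when 1 library was left out. Replicate numbers did not pair the libraries: deviations of same-numbered libraries correlated at -0.42 to 0.40, and 4 of 15 libraries were closest to one with their own number. With the number as a replicate block 0 family genes were called in each comparison, and the median log2 fold change of the family in YJZYT against Model was -0.88. At an unadjusted p of 0.05, limma on log2(FPKM + 1) held 2 family genes in Model against Blank (9.19% of all genes), 1 in YJZYT against Model (8.37%), 1 in YJT against SYT (4.48%), 1 in YJZYT against SYT (11.3%), 3 in YJZYT against YJT (5.17%) and 2 in the 5-group test (10.3%), of 29 tested. DESeq2 held 2 in YJT against SYT (3.84%) and 8 in YJZYT against SYT (9.54%), of 43. The 12 genes with a mean of at least 5 FPKM held 1 in YJZYT against Model (9.46%) and 0 in each other test, against 2.8% to 8.45%. Fitting only the 6 libraries compared gave 1 in YJZYT against Model (6.69%) and 3 in YJZYT against SYT (5.65%), and leaving out both YJT replicate 3 and YJZYT replicate 3 gave 1 (3.39%) and 2 (4.75%). Without a filter YJT against Model held 5 (5.53%) and YJT against SYT 1 (2.84%). Without YJT replicate 1 the 5-group test held 8 (8.67%). Precision is limited by 3 libraries per group, and by few counts for genes of low level such as Adamts8, Adamts16, Adamts20, Mmp10 and Mmp27.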

Other observations

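The 13 tested family genes under 1 FPKM by mean over the 15 libraries were set against the same 15 marker scores, with closeness judged apart from the muscle score, after the data had been seen, in 195 pairs adjusted together. Of these 37 passed an adjusted p of 0.05 by Pearson's r from 100000 permutations, 36 of them positive and 4 of them with the muscle score. Mmp15, a membrane-type MMP, was closest to the tendon and fibroblast score (r = 0.903, adjusted p = 0.000975, rho = 0.932, adjusted p = 0.00195), and r was 0.814 without YJZYT replicates 3 and 2, the farthest on that score. Mmp12, the macrophage elastase, was closest to the osteoclast score (r = 0.918, adjusted p = 0.000975, rho = 0.825, adjusted p = 0.00845), with r = 0.872 without YJT replicate 3 and YJZYT replicate 3, and its coefficient with the macrophage score was 0.712. Adamts4, an aggrecanase, was closest to the endothelial score (r = 0.861, adjusted p = 0.00130, rho = 0.832, adjusted p = 0.00845), with r = 0.804 without SYT replicate 3 and YJZYT replicate 3. Mmp10, a stromelysin, was closest to the chondrocyte score (r = 0.898, adjusted p = 0.00130, rho = 0.725, adjusted p = 0.0236), with r = 0.625 without YJZYT replicate 3 and YJT replicate 3. Both of these libraries had 0 counts of Mmp10, which had at most 72 in any library. These 4 genes were picked from the pairs after their values were seen, the scores share their libraries, and the differences between coefficients were not tested. With values centred on group means, r with the score named was 0.913 for Mmp15, 0.947 for Mmp12, 0.831 for Adamts4 and 0.894 for Mmp10.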
